A study of Sus scrofa with 6 samples.

Results

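Genes of the proteasome and of the ubiquitin-specific proteases were followed in RNA sequencing of pig back muscle. Members were chosen by name alone: each row of the expression table whose Ensembl pig identifier maps to a symbol beginning with PSMA to PSMG, or with USP and a digit. Of 17627 genes in the table, 69 met the rule, 27 with a PSM symbol and 42 with a USP symbol. The table of gene names holds 93 such symbols, and 24 of them, among them PSMA2, PSMB5, PSMC4 and PSMD2, matched no row and were not analysed here. PSMC3IP and USP6NL share only the start of a symbol with the families and encode neither a subunit nor a protease of them.

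RNA came from longissimus dorsi, which runs along the spine. Wannanhua, a breed native to China, and Yorkshire, a breed kept worldwide for lean pork, contributed 3 libraries each. Both breeds are labelled as 5 months old, whereas the design text of the series speaks of piglets, and the labels name no treatment. The labels do not state that the libraries of a breed came from separate animals, so p-values here rest on the variation among libraries, part of which may be technical.

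The proteasome is the barrel-shaped protease that breaks down proteins tagged with chains of ubiquitin. Its 20S core is a stack of alpha rings, which gate the entrance, and beta rings, which hold the cutting sites. The 19S cap binds tagged proteins, removes the ubiquitin and threads the protein into the core with a ring of ATPases. Ubiquitin-specific proteases, the largest family of deubiquitinases, take ubiquitin off proteins before or at the proteasome and so can spare them or alter their activity. In skeletal muscle this system is best known for the turnover of contractile proteins, which quickens when muscle wastes.

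Between 16385602 and 21056700 reads per library were recovered from the deposited values, and the 69 members took between 0.464% and 0.733% of them. Libraries of the same breed differed well beyond counting noise, with a chi-square per degree of freedom of 86.8 to 393, so none was treated as a repeat of another. Levels are given as FPKM, fragments scaled by transcript length and by the mapped fragments of the library. In whole muscle, fewer cells of a type and less RNA per cell cannot be told apart. Summed FPKM of 9 muscle-defining markers lay between 38963 and 52173 in Wannanhua and between 38035 and 51481 in Yorkshire. Slow fibre markers (5 genes) summed to 10788 to 43294 FPKM in Wannanhua and 5638 to 17286 in Yorkshire, and fast fibre markers (6 genes) to 11608 to 36607 and 53825 to 54950. Wannanhua 3, with the 10788 and the 36607, lay nearer to the Yorkshire libraries than the other Wannanhua libraries did.

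Most members were well expressed. Testing required 1 FPKM or more in 3 libraries at the least, which kept 58 of the 69 members, 26 PSM genes and 32 USP genes. The 11 that fell short were USP3, USP27X, USP31, USP35, USP43, USP44, USP49, USP50, USP51, PSMC3IP and USP6NL, which averaged at most 38.2 reads a library. On the FPKM scale, which allows for transcript length, PSMD11 had the highest mean level over the 6 libraries at 200.6 FPKM, followed by PSMD4 at 133, PSMB1 at 130 and PSMB7 at 118. The last 3 lay within each other's spread between libraries. USP13, at 83.7 FPKM, was the most abundant of the USP genes, ahead of USP25 at 63.8, USP47 at 49.1 and USP28 at 47.9. The inducible core subunits PSMB8 and PSMB9 stood far below the constitutive ones.

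**Figure D1:**
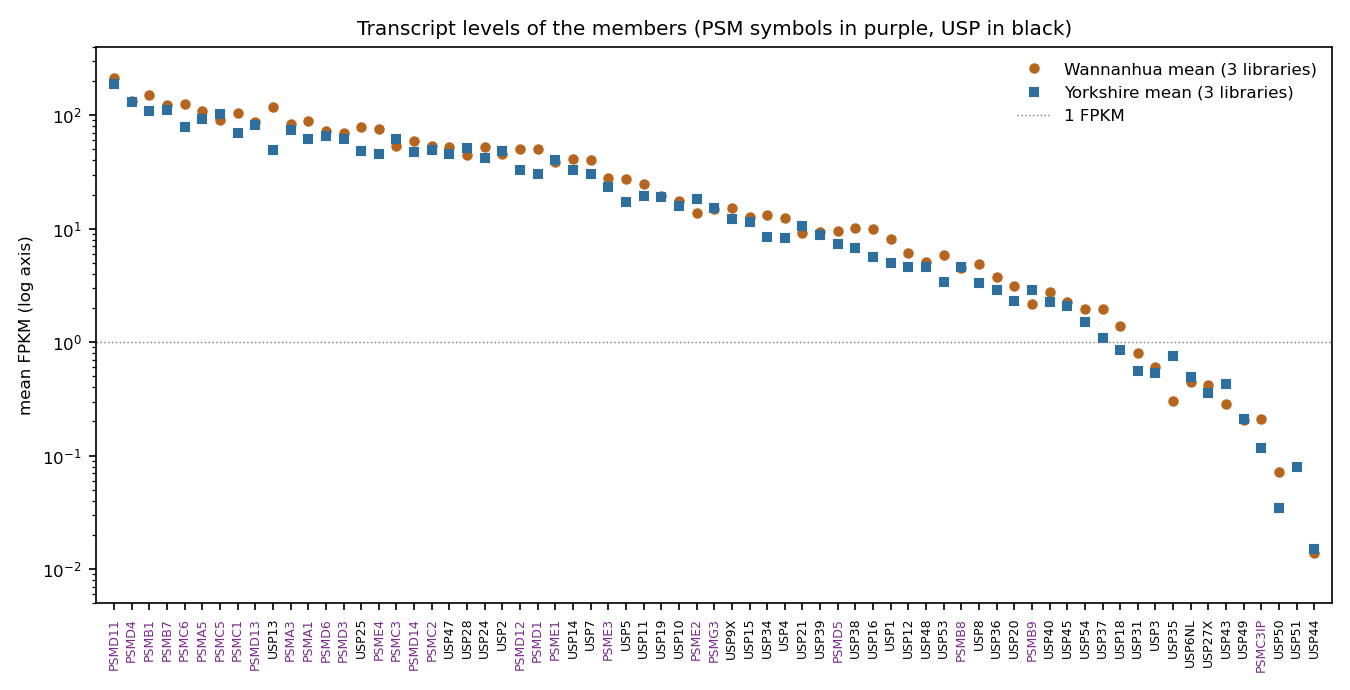
Mean FPKM (log axis) of the 69 members, ordered by their mean over 6 libraries, with circles for Wannanhua and squares for Yorkshire means of 3 libraries each. PSMD11 leads at 200.6 FPKM and USP13 is the highest USP gene at 83.7. The dotted line marks 1 FPKM, and a breed mean of 0 (USP51 in Wannanhua) cannot appear on a log axis.

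The breed comparison asked which genes of this muscle differ between Wannanhua and Yorkshire. No tested member passed an adjusted p of 0.05 (limma with Benjamini-Hochberg adjustment over 11791 genes), against 3.05% of all genes tested. Most fitted differences were nonetheless positive: 48 of the 58 members had a log2 difference above 0 (the Wannanhua mean of log2(FPKM + 1) less the Yorkshire mean), made up of 19 of 26 PSM genes and 29 of 32 USP genes. Over all genes tested 62.6% lay above 0. The median log2 difference was 0.17 for the PSM genes, 0.30 for the USP genes and 0.12 for all genes tested. Quantile normalization brought the median of all genes to 0.00, and those of the PSM and USP genes to 0.14 and 0.20. With it 43 of 58 members lay above 0, beside 5950 of the 11791 genes tested. On recovered reads in edgeR, where the median of all genes was 0.01, 38 of 58 members lay above 0, 15 PSM and 23 USP genes, with medians of 0.06 and 0.26. Of the 11791 genes, 5867 lay above 0 in edgeR, and some of the others were outside its own filter.

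At an unadjusted p under 0.05, limma gave 10 of the 58 members (17.2%), against 22.1% of all genes tested. Of these, 9 were higher in Wannanhua, where the background was 14.6%, and 1 was lower, where it was 7.53%. The 9 were USP13, USP16, USP1, USP53, USP5, USP4, USP38, PSME4 and PSMD1, and the 1 was PSME2. By family they were 3 of 26 PSM genes (11.5%) and 7 of 32 USP genes (21.9%). Neither share exceeded that of all genes in both directions together (22.1%). All 7 USP genes were higher in Wannanhua, where the background was 14.6%. All 3 Wannanhua libraries exceeded all 3 Yorkshire libraries in 22 of the 58 members, beside 20.3% of all genes tested. These were 7 of 26 PSM genes and 15 of 32 USP genes (46.9%). USP18, counted in the 15 and among the 29 USP genes above 0, met the filter on low values only through the Wannanhua libraries. The reverse held for 1 member, PSME2, beside 9.63%. Both directions together gave 39.7% of the members and 29.9% of all genes tested. Other analyses called at most 1 member at an adjusted p under 0.05. The edgeR quasi-likelihood test on recovered reads called no member and 2.87% of its genes, with 9 members at an unadjusted p under 0.05, beside 21% of its genes. DESeq2 on the same reads called 1 member, USP13, and 9.81% of its genes. Limma with a filter at 5 FPKM called 1 member, again USP13, and 5.42% of its genes.

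**Figure D2:**
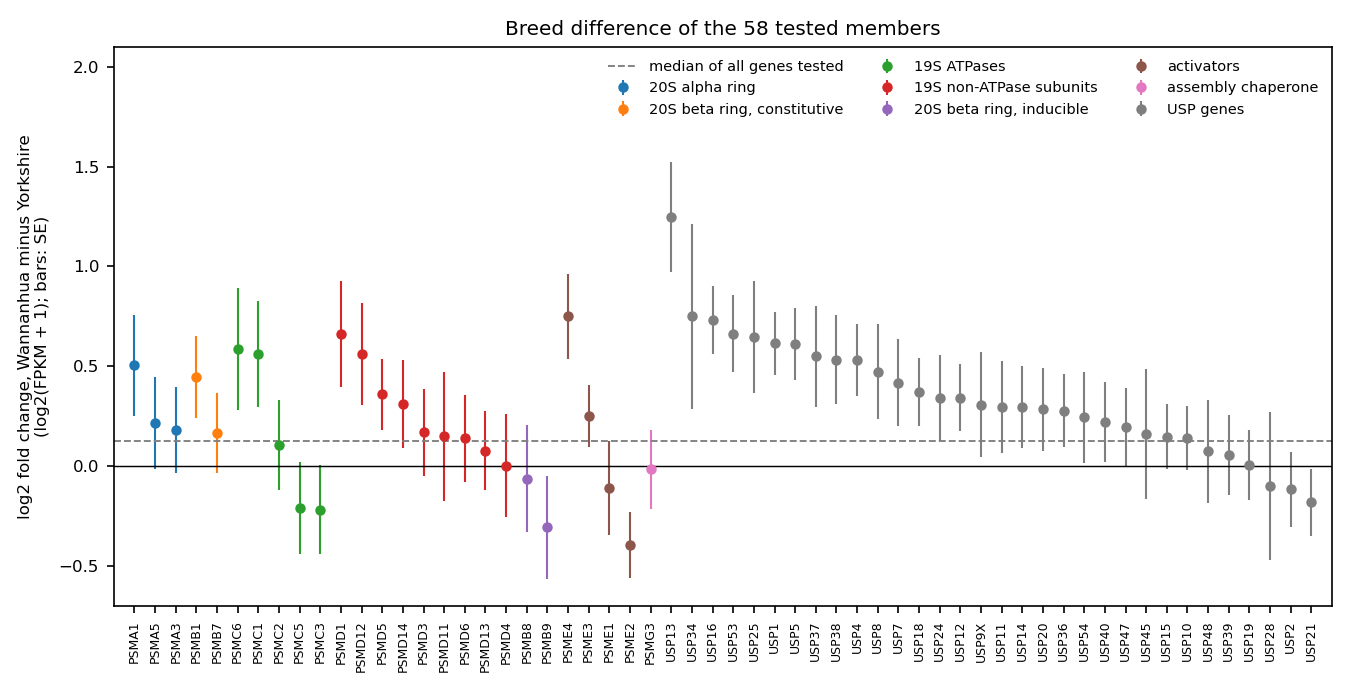
Log2 difference of each of the 58 tested members (points, with bars for the SE of the limma fit), the Wannanhua mean of log2(FPKM + 1) less that of Yorkshire, grouped and coloured by role. Most points lie above 0, the dashed line is the median of all genes tested (0.12), and USP13 is the 1 member whose difference exceeds 1.

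The core particle was represented by 3 alpha subunits and 2 constitutive beta subunits. PSMA1, an alpha subunit, measured 72.2, 76.7 and 119 FPKM in Wannanhua 1, 2 and 3. The Yorkshire libraries, in the same order, had 75.3, 59.5 and 50.7. Its log2 difference was 0.50 ± 0.25 (SE, 3 libraries per breed; limma adjusted p = 0.287). The breeds overlapped, because Yorkshire 1 exceeded Wannanhua 1. PSMB1, a structural beta subunit, was at 136, 131 and 185 FPKM in Wannanhua and 124, 106 and 98.2 in Yorkshire. Here the breeds did not overlap, but the difference of 0.45 ± 0.20 (SE) did not pass (limma adjusted p = 0.250). PSMB7, which carries the trypsin-like cutting site, was at 113, 116 and 144 FPKM against 134, 97.6 and 102, a log2 difference of 0.16. PSMA3 and PSMA5, the remaining alpha subunits, had log2 differences of 0.18, which was -0.05 on reads in edgeR, and 0.22. All 5 had their highest value in Wannanhua 3.

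The 5 measured ATPases of the 19S base split in direction. PSMC6 was at 93.7, 90.3 and 191 FPKM in Wannanhua and 87.5, 76.9 and 70.2 in Yorkshire, with means of 125 ± 57.4 and 78.2 ± 8.74 (SD, n = 3). Its log2 difference of 0.59 ± 0.31 (SE; limma adjusted p = 0.304) was 0.24 without Wannanhua 3. PSMC1 resembled it, with 87.1, 83.7 and 144 FPKM against 86.3, 59.6 and 63.0 and a log2 difference of 0.56 ± 0.27 (SE; limma adjusted p = 0.266). PSMC3 and PSMC5 had negative log2 differences. PSMC3 was at 46.6, 47.6 and 65.9 FPKM in Wannanhua and 77.1, 57.8 and 52.2 in Yorkshire, a log2 difference of -0.22 (limma adjusted p = 0.604). PSMC5 was at 80.7, 72.2 and 118 FPKM against 118, 97.4 and 93.0, a log2 difference of -0.21 (limma adjusted p = 0.629). In both genes Yorkshire 1 was the highest library, level with Wannanhua 3 for PSMC5. PSMC2 had a log2 difference of 0.10, and of -0.04 on reads in edgeR. Whether the ATPases differ among themselves was not tested.

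All 9 measured genes listed as non-ATPase subunits of the 19S cap had fitted differences at or above 0. Of these, PSMD4 and PSMD13 were below it on reads in edgeR, at -0.08 and -0.03. PSMD1, the large scaffold of the base, was the furthest from 0 of the core and cap genes. It measured 37.8, 43.1 and 69.8 FPKM in Wannanhua and 25.1, 30.6 and 36.3 in Yorkshire, means of 50.2 ± 17.1 and 30.7 ± 5.61 (SD, n = 3). The lowest Wannanhua library lay just above the highest Yorkshire library, and the log2 difference was 0.66 ± 0.27 (SE; limma adjusted p = 0.204). PSMD12, a lid subunit, was at 39.7, 40.2 and 72.8 FPKM against 33.9, 31.0 and 33.6, a log2 difference of 0.56 ± 0.26 (SE; limma adjusted p = 0.247). PSMD14, the deubiquitinase built into the lid, was at 51.8, 52.3 and 75.3 FPKM against 56.1, 39.8 and 47.3, a log2 difference of 0.31 ± 0.22 (SE; limma adjusted p = 0.444).

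PSMD11, the lid subunit that clamps cap to core, showed the widest spread of the abundant subunits. It was at 151, 180 and 310 FPKM in Wannanhua and 135, 230 and 199 in Yorkshire, means of 213 ± 84.5 and 188 ± 48.4 (SD, n = 3). Its log2 difference of 0.15 ± 0.32 (SE; limma adjusted p = 0.821) turned to -0.15 without Wannanhua 3 and to -0.07 without Yorkshire 1. PSMD4, a ubiquitin receptor, was at 103, 120 and 178 FPKM against 162, 113 and 121, a log2 difference of 0.00 ± 0.26 (SE). PSMD5, which helps to assemble the 19S base and is not part of the finished particle, was an order lower in level. By its symbol it is still counted among the 9 non-ATPase genes and the 19 core and cap genes. It was at 8.99, 9.83 and 10.1 FPKM against 8.70, 7.21 and 6.14 without overlap, a log2 difference of 0.36 ± 0.18 (SE; limma adjusted p = 0.284). PSMD3, PSMD6 and PSMD13 had log2 differences of 0.17, 0.14 and 0.08, and without Wannanhua 3 of -0.02, -0.06 and -0.07.

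The 19 genes of the 20S core and the 19S cap shared a pattern across libraries. Wannanhua 3 was the highest of the 6 libraries in 17 of the 19 (89.5%), against 22.4% of all genes tested. PSMC3 and PSMC5 were the exceptions. In each of the 19, Wannanhua 3 exceeded the mean of Wannanhua 1 and 2, by a median of 0.62 on the log2(FPKM + 1) scale, where 55.0% of all genes tested did so and their median was 0.05. Yorkshire 1 exceeded the mean of Yorkshire 2 and 3 in 17 of the 19, with a median of 0.30 against -0.13 for all genes tested. The same counts on recovered reads with TMM scaling, chosen after seeing the data, were lower for the top library: Wannanhua 3 was highest in 12 of the 19 (63.2%), against 15.02% of all genes. On that scale it still exceeded the mean of Wannanhua 1 and 2 in 19 of 19, by a median of 0.54. Yorkshire 1 lay below the mean of Yorkshire 2 and 3 in only 2 of the 19 on that scale. Its median difference from them was 0.49, beside 0.04 for all genes tested. After quantile normalization of FPKM, 16 of the 19 had a log2 difference between breeds above 0, and 17 had one in the main fit.

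Summed over the 19 genes, FPKM came to 1435, 1478 and 2293 in Wannanhua 1, 2 and 3 and to 1600, 1410 and 1365 in Yorkshire 1, 2 and 3. As a share of recovered reads these genes took 0.241%, 0.254% and 0.342% in Wannanhua and 0.246%, 0.235% and 0.204% in Yorkshire. By both measures Wannanhua 3 was the highest library. The other 5 lay between 1365 and 1600 FPKM, and between 0.204% and 0.254% of reads. Neither measure is TMM-scaled. Without Wannanhua 3 the median log2 difference of the 26 PSM genes was 0.05, beside 0.10 for all genes tested, and 10 of the 19 core and cap genes had a difference above 0. The difference of PSMD1 was then 0.40, that of PSMC1 0.31, of PSMB1 0.29, and of PSMA1 and PSMD12 0.28. Of the tested members, 6 of 57 (10.5%) then had an unadjusted p under 0.05, beside 21.6% of all genes tested. None of the 19 then reached an unadjusted p under 0.05 in limma, where 1 of 19 had done so with it. Wannanhua 3 is also the Wannanhua library with the lowest slow fibre and the highest fast fibre sums, and the part of fibre makeup in these values was not tested.

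**Figure D3:**
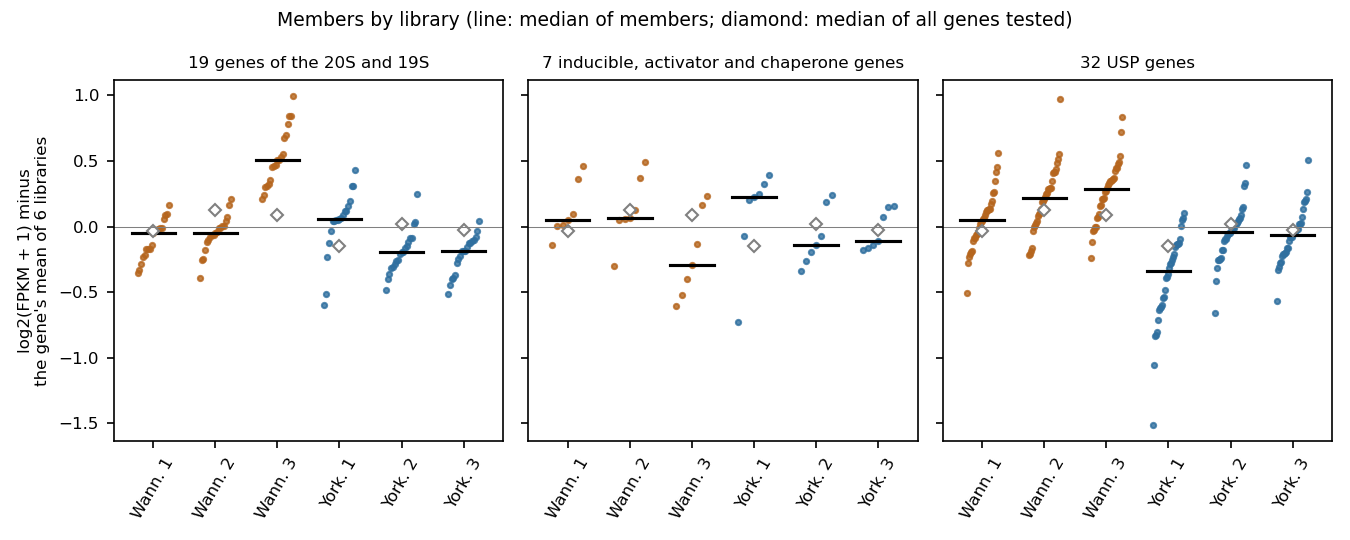
Each point is a gene's log2(FPKM + 1) minus its own mean over the 6 libraries, in brown for Wannanhua and blue for Yorkshire libraries; black lines are medians of the members and open diamonds medians of all genes tested. In the left panel (20S and 19S) Wannanhua 3 stands apart with a median of 0.50, while in the right panel (USP genes) Yorkshire 1 is the lowest with a median of -0.34.

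Subunits that replace constitutive ones in the immunoproteasome were low in Wannanhua 3. PSMB8 and PSMB9 are catalytic subunits that interferon-gamma induces and that are abundant in immune cells. PSMB8 was at 5.97, 4.69 and 2.77 FPKM in Wannanhua and 5.78, 4.17 and 3.85 in Yorkshire, a log2 difference of -0.06 ± 0.27 (SE; limma adjusted p = 0.912). PSMB9 was at 2.67, 2.55 and 1.25 FPKM against 3.51, 3.05 and 2.04, a log2 difference of -0.31 ± 0.26 (SE; limma adjusted p = 0.521). Without Wannanhua 3 these differences were 0.18 for PSMB8 and -0.08 for PSMB9. Both genes were lowest in Wannanhua 3, where the constitutive PSMB7 was highest, and both were higher in Yorkshire 1 than in the mean of Yorkshire 2 and 3, as most core and cap genes were. PSMB8 amounted to 5.29%, 4.04% and 1.93% of the PSMB7 FPKM in Wannanhua and to 4.32%, 4.28% and 3.76% in Yorkshire. PSMB9 amounted to 2.36%, 2.20% and 0.869% of it in Wannanhua and to 2.62%, 3.12% and 1.99% in Yorkshire. These ratios set one gene against another in the same library and show unequal levels only. PSMB8 and PSMB9 replace PSMB5 and PSMB6, which matched no row, so PSMB7 is not the counterpart of either. Both genes were thinly covered, PSMB9 with an average of 30 reads a library and PSMB8 with 63.3.

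Leukocyte markers, 15 of the 20 listed having a row and 2 of those listed at 0 in some library, summed to 20.04 to 26.8 FPKM in Wannanhua and 21.7 to 35.3 in Yorkshire. Interferon-induced genes (12 rows) summed to 18.6 to 24.9 and 21.8 to 27.0 FPKM. Of 10 tested, 1 passed in limma, beside 3.05% of all genes tested. It was the antiviral gene OAS2, which was lower in Wannanhua (log2 difference -1.26, limma adjusted p = 0.0495, passing in 5 of 14 alternatives). Both sums were lowest in Wannanhua 3, the library with the least PSMB8 and PSMB9, and their part in those values was not tested. Of 10 tested partners of the immunoproteasome in antigen presentation, none passed an adjusted p of 0.05 in limma, 3 had an unadjusted p under 0.05 (22.1% of all genes tested did), and their median log2 difference was -0.01; edgeR and DESeq2 called 0 of them as well.

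The activators, which can cap the core in place of the 19S, held the PSM gene with the lowest adjusted p. They also held the one without overlap in the opposite direction. PSME4 encodes PA200, a large nuclear activator tied to the breakdown of acetylated histones. It was at 81.0, 82.7 and 65.6 FPKM in Wannanhua and 34.9, 48.6 and 52.8 in Yorkshire, means of 76.4 ± 9.41 and 45.5 ± 9.37 (SD, n = 3). Every Wannanhua library exceeded every Yorkshire library, a ratio of means of 1.68. The log2 difference was 0.75 ± 0.21 (SE; limma adjusted p = 0.102) and the adjusted p ranged from 0.0862 to 0.284 over 15 alternative analyses. Unlike the core and cap genes, PSME4 was lowest among Wannanhua libraries in Wannanhua 3.

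PSME1 and PSME2 encode the alpha and beta chains of PA28, the activator that interferon-gamma induces with the immunoproteasome. PSME2 was at 15.7, 12.5 and 12.7 FPKM in Wannanhua and 18.9, 18.0 and 17.6 in Yorkshire, means of 13.6 ± 1.80 and 18.1 ± 0.658 (SD, n = 3). It was the 1 member with each Wannanhua library below each Yorkshire library. The log2 difference of -0.39 ± 0.17 (SE) did not pass (limma adjusted p = 0.218, and 0.175 to 0.473 over 15 alternatives). Its partner PSME1 overlapped, at 35.3, 50.8 and 29.3 FPKM against 45.9, 35.3 and 41.1 (log2 difference -0.11; limma adjusted p = 0.820). PSME1 exceeded PSME2 by 2.25, 4.05 and 2.31 times in Wannanhua and by 2.43, 1.96 and 2.34 times in Yorkshire, so the chains kept a like ratio in 5 libraries and differed most in Wannanhua 2. PSME3, the nuclear PA28 gamma, was at 25.8, 28.0 and 30.3 FPKM against 24.3, 22.3 and 23.6 without overlap, a log2 difference of 0.25 ± 0.16 (SE; limma adjusted p = 0.386). The chaperone PSMG3, which helps to build the alpha ring, had a log2 difference of -0.02 ± 0.20 (SE) on an average of 44.7 reads a library.

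**Figure D4:**
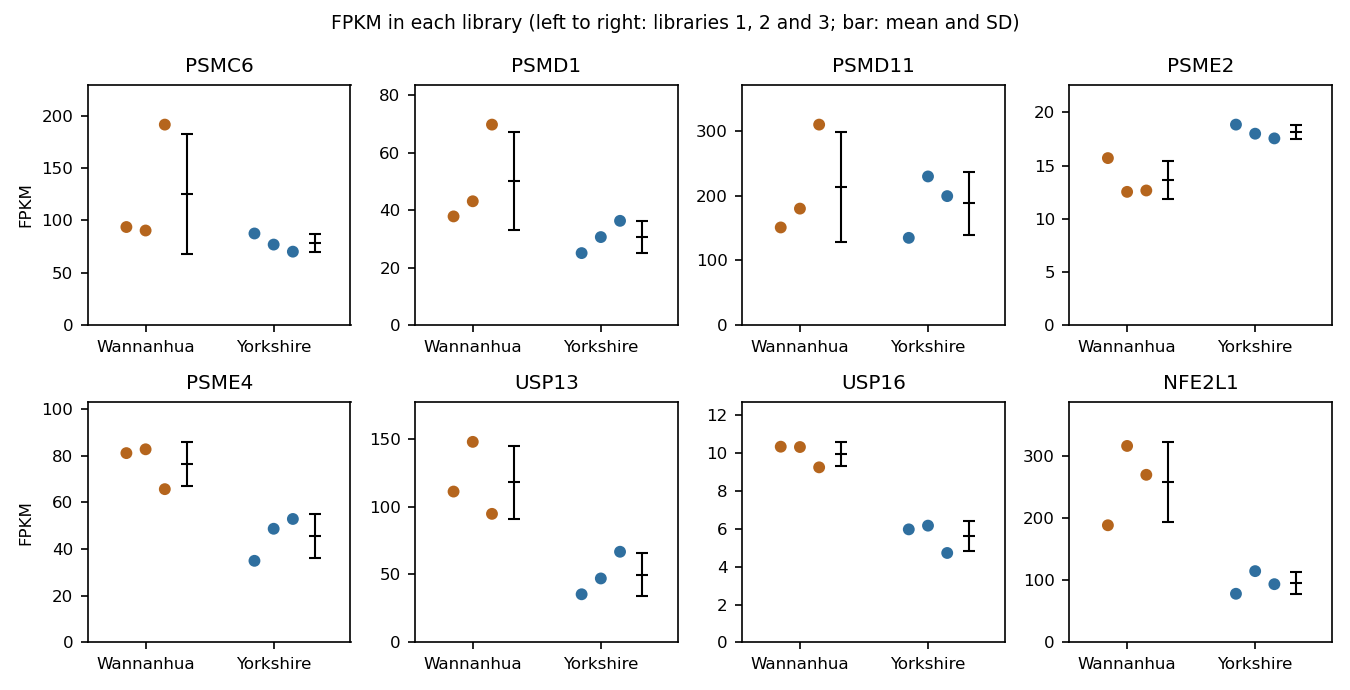
FPKM of 8 genes in each library (points, libraries 1 to 3 from left to right in each breed), with the mean and SD of each breed beside them. PSMC6, PSMD1 and PSMD11 peak in Wannanhua 3. The breeds overlap for PSMD11; PSMC6, PSMD1, PSME4, USP13, USP16 and NFE2L1 are higher in each Wannanhua library than in any Yorkshire library, and PSME2 is lower.

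Of the USP genes, USP13 was both the most abundant and the furthest from 0. USP13 (ENSSSCG00000011765) encodes a deubiquitinase closely related to USP5. It was at 111, 148 and 94.6 FPKM in Wannanhua and 35.4, 47.1 and 66.7 in Yorkshire, means of 118 ± 27.1 and 49.7 ± 15.8 (SD, n = 3). The lowest Wannanhua library exceeded the highest Yorkshire library, and the means stood in a ratio of 2.37. The log2 difference was 1.25 ± 0.28 (SE; limma adjusted p = 0.0595), with between 3583 and 15359 reads in a library. Over 15 alternatives the log2 difference ranged from 1.03 to 1.48 and the adjusted p from 0.00606 to 0.198. It passed the threshold in 2 of them, DESeq2 (0.00606) and the filter at 5 FPKM (0.0483), and missed it in edgeR (0.0788).

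Its relative USP5, which takes free ubiquitin chains apart and so returns ubiquitin to the pool, also separated the breeds. It was at 22.2, 29.6 and 29.9 FPKM in Wannanhua and 17.7, 16.0 and 18.4 in Yorkshire, a log2 difference of 0.61 ± 0.18 (SE; limma adjusted p = 0.113). USP16, which removes ubiquitin from histone H2A, was at 10.3, 10.3 and 9.24 FPKM against 5.97, 6.16 and 4.72, means of 9.96 ± 0.624 and 5.62 ± 0.783 (SD, n = 3). The log2 difference was 0.73 ± 0.17 (SE; limma adjusted p = 0.0664, and 0.0521 to 0.218 over 15 alternatives). USP1, which acts on the DNA repair proteins FANCD2 and PCNA, was at 9.10, 7.81 and 7.56 FPKM against 4.74, 5.19 and 4.97. Its log2 difference was 0.61 ± 0.16 (SE; limma adjusted p = 0.0855, and 0.0710 to 0.254 over 15 alternatives).

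USP53, long classed as an inactive member of the family, was at 5.29, 6.66 and 5.81 FPKM in Wannanhua and 2.57, 3.84 and 3.78 in Yorkshire, a log2 difference of 0.66 ± 0.19 (SE; limma adjusted p = 0.107). USP54, classed with it, overlapped between breeds with a log2 difference of 0.24 ± 0.23 (SE). USP4 was at 12.3, 11.7 and 13.2 FPKM against 6.96, 9.90 and 8.19, a log2 difference of 0.53 ± 0.18 (SE; limma adjusted p = 0.147), and USP38 had a log2 difference of 0.53 ± 0.22 (SE; limma adjusted p = 0.219). USP39, a splicing factor with the family's fold, had a log2 difference of 0.06 ± 0.20 (SE). USP18, which removes the ubiquitin-like protein ISG15, was low at 1.68, 1.26 and 1.25 FPKM against 0.885, 0.691 and 0.987. It met the filter on low values only through the Wannanhua libraries, each Yorkshire value being under 1 FPKM, so that its direction and its lack of overlap were favoured by the filter. The log2 difference was 0.37 ± 0.17 (SE; limma adjusted p = 0.252) on an average of 44.5 reads a library.

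USP14, which docks on the 19S cap and trims ubiquitin chains there, was at 34.0, 37.4 and 51.5 FPKM in Wannanhua and 30.3, 36.8 and 31.3 in Yorkshire, a log2 difference of 0.30 ± 0.20 (SE; limma adjusted p = 0.431). Its highest library was Wannanhua 3, as it was for 17 of the 19 core and cap genes. That library was also highest in 16 of the 32 tested USP genes, USP14 included, against 22.4% of all genes tested. The peak was thus not particular to USP14 within its family. USP19, studied for its part in muscle wasting, was at 16.1, 20.4 and 21.4 FPKM against 20.6, 18.4 and 18.4, a log2 difference of 0.00 ± 0.17 (SE; limma adjusted p = 0.992). USP2 was at 40.2, 40.9 and 54.5 FPKM against 43.6, 49.6 and 53.2, a log2 difference of -0.12 ± 0.19 (SE), and USP21 had the most negative of the USP genes at -0.18 ± 0.17 (SE). USP7, which stabilises MDM2 and p53, was at 34.9, 37.9 and 48.3 FPKM against 23.3, 31.9 and 35.2, a log2 difference of 0.42 ± 0.22 (SE; limma adjusted p = 0.308).

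USP25 and USP28 are close relatives, and USP25 has a long form typical of muscle. USP25 was at 55.9, 71.9 and 109 FPKM in Wannanhua and 39.1, 59.7 and 47.9 in Yorkshire, a log2 difference of 0.65 ± 0.28 (SE; limma adjusted p = 0.232). USP28 was at 39.6, 39.1 and 54.8 FPKM against 25.2, 63.4 and 65.2, a log2 difference of -0.10 ± 0.37 (SE; limma adjusted p = 0.899). Yorkshire 1 was the lowest library for both, and without it the spread of USP28 shrank to a pair of Yorkshire values above each Wannanhua value. The table holds genes and not isoforms, so the long form of USP25 was not measured apart.

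That library stood low across the family. Yorkshire 1 was the lowest of the 6 libraries in 20 of 32 USP genes (62.5%), against 36.3% of all genes tested. It lay below the mean of Yorkshire 2 and 3 in 24 of the 32, by a median of -0.28 on the log2(FPKM + 1) scale. The widest gaps were those of USP34 (-1.70), USP28 (-1.32), USP45 (-1.14) and USP37 (-0.79). USP34 measured 2.80 FPKM in Yorkshire 1 and 12.4 and 10.4 in Yorkshire 2 and 3, beside 10.7, 12.3 and 16.8 in Wannanhua. Its log2 difference of 0.75 had an SE of 0.46 (limma adjusted p = 0.384) and was 0.18 without Yorkshire 1. Summed over the 42 USP genes, FPKM came to 622, 720 and 771 in Wannanhua and to 430, 577 and 586 in Yorkshire, and their share of recovered reads to 0.306%, 0.386% and 0.344% and to 0.186%, 0.286% and 0.257%. Yorkshire 1 was lowest in both.

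Over all genes tested, Yorkshire 1 lay lowest for the longest transcripts, with no steady trend over the shorter ones. Relative lengths can be read from the files, since dividing a gene's count by its FPKM leaves its length up to a library factor. By this measure USP transcripts were long, with a median of 2.31 times the median tested gene and 22 of 32 among the longest 20% of genes, and PSM transcripts were short, with a median of 0.78. Over all genes tested, Yorkshire 1 minus the mean of Yorkshire 2 and 3 had a median of -0.11, 0.01, -0.04, -0.12 and -0.28 over 5 equal groups from the shortest to the longest. In the longest group 80.7% of genes lay below 0, beside 24 of 32 USP genes (75.0%) and 3 of 26 PSM genes (11.5%). The USP median of -0.28 equals that of the longest group, whereas the PSM median of 0.29 lay above that of each group. On recovered reads with TMM scaling, the USP median was -0.07 beside 0.04 for all genes tested, and Yorkshire 1 was lowest in 15 of 32 (46.9%) beside 26.05%. Without Yorkshire 1 the median log2 difference of the USP genes was 0.24, of the PSM genes 0.27 and of all genes tested 0.07, and 12 of 58 members (20.7%) had an unadjusted p under 0.05 in limma, beside 22.4% of all genes tested. Yorkshire 1 also had the lowest sum of 4 adipocyte markers, at 4.95 FPKM, where the other 5 libraries had 17.0 to 26.4. The parts of transcript length and of fat in the breed differences were not tested.

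**Figure D5:**
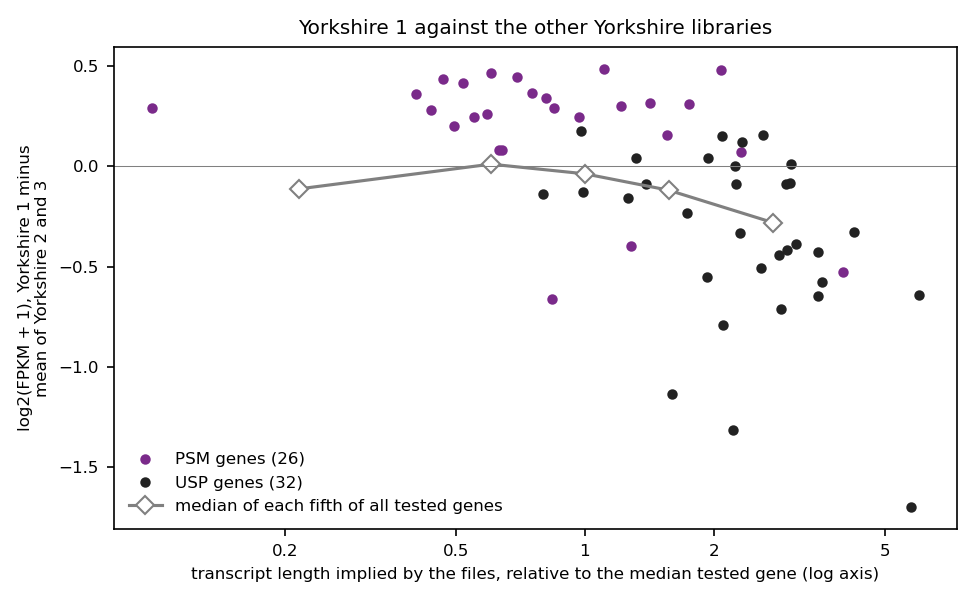
Yorkshire 1 minus the mean of Yorkshire 2 and 3 on the log2(FPKM + 1) scale (vertical axis), against transcript length implied by the files relative to the median tested gene (log axis), for 26 PSM and 32 USP genes. Diamonds joined by a line are medians of 5 equal groups of all genes tested by length, which end at -0.28 for the longest; most USP points lie right and below 0, most PSM points left and above it.

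Other genes of the pathway were followed through lists. Of 10 tested proteasome partners and regulators outside the naming rule, 7 had a log2 difference above 0, beside 62.6% of all genes tested. Their median was 0.15, and 1 passed the adjusted threshold in limma, beside 3.05% of all genes tested. EdgeR called 1 of the 10 and DESeq2 called 2, beside 2.87% and 9.81% of their genes. The gene that passed in limma was NFE2L1, the transcription factor that raises proteasome subunit genes when proteasome activity falls short. NFE2L1 was at 188, 316 and 270 FPKM in Wannanhua and 78.2, 115 and 93.7 in Yorkshire, means of 258 ± 64.6 and 95.5 ± 18.3 (SD, n = 3). The breeds were far apart, with a log2 difference of 1.41 ± 0.25 (SE; limma adjusted p = 0.0397), and it passed in 8 of 15 alternatives (adjusted p 5.03e-06 to 0.143). It missed the threshold with no filter on low values (adjusted p = 0.0672) and with any 1 of the 6 libraries left out, from 0.0538 without Wannanhua 3 to 0.143 without Yorkshire 3. By library NFE2L1 was highest in Wannanhua 2, and the core and cap genes in Wannanhua 3. Its relative NFE2L2 was at 39.1, 39.4 and 30.5 FPKM against 20.7, 28.5 and 20.3, a log2 difference of 0.63 (limma adjusted p = 0.131).

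Upstream of the proteasome, none of 16 tested ubiquitin genes, activating enzymes and shuttle factors passed in limma, 2 had an unadjusted p under 0.05, beside 22.1% of all genes tested, and their median log2 difference was 0.07. EdgeR called 0 of the 16 and DESeq2 called 1, beside 2.87% and 9.81% of their genes. Of 15 tested ubiquitin-conjugating enzymes, 5 had a difference above 0, beside 62.6% of all genes tested. Their median was -0.17, and 1 passed in limma, beside 3.05% of all genes tested. EdgeR called 1 of the 15 and DESeq2 called 3, beside the same shares of their genes as above. The gene that passed in limma was UBE2W, which attaches ubiquitin to the amino end of proteins. UBE2W was higher in Wannanhua, at 22.7, 29.3 and 21.0 FPKM against 8.61, 12.7 and 11.0, with a log2 difference of 1.11 ± 0.21 (SE; limma adjusted p = 0.0429). It passed in 8 of 15 alternatives, with adjusted p from 0.00380 to 0.1505. It missed the threshold with no filter on low values (0.0702) and with the replicate number added to the model (0.0555). Of the fits without 1 library it passed in that without Wannanhua 3 (0.0427), the other 5 giving 0.070 to 0.1505. A further list held deubiquitinases of other families together with related genes, not all of which are known to remove ubiquitin. Of its 27 tested genes none passed in limma, and 2 had an unadjusted p under 0.05, beside the same 22.1%. Their median log2 difference was 0.15, and edgeR and DESeq2 called 0 of them.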

How the data were processed

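RNA of 6 longissimus dorsi libraries, 3 per breed by the breed label, was poly-A selected and made into paired-end libraries with a kit that does not mark strand, per the labels' protocols. CASAVA 1.7, TopHat2 2.0.6 and build Sscrofa10.2 stand, without roles, in the submitters' processing notes. Not given in the sources used here were the read counter, the annotation and the treatment of reads matching several genes. The table the authors deposited gives FPKM per gene and library, computed by the authors from mapped fragments and transcript length, per the file headers. The authors' deposited count columns are not whole and were read as a signal, namely reads scaled by a factor per library. At least 99.7% of values above 0 in each library were whole multiples of 1 step (within 0.01 of a read or a relative 1e-05), which gave back the reads. The quasi-likelihood test of edgeR 4.0.16 with TMM on those reads called 375 of 13065 genes.

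Differences are Wannanhua minus Yorkshire on log2(FPKM + 1), which understates changes of genes with low values, fitted in limma 3.58.1 (R 4.3.3; breed as the 1 term, trend and robust moderation). Genes needed 1 FPKM or more in 3 libraries at the least, and 7 genes with a scaled count of 10000 or more in one library and 0 in another, none of them a member, were left out, leaving 11791. P-values were adjusted by Benjamini-Hochberg over all of them, with a threshold of 0.05, and 360 genes passed. The 15 alternatives included DESeq2 1.42.0. The limma and edgeR tests were also run on simulated data, and DESeq2 was not. Symbols matched 10384 of 17627 identifiers (58.9%). No sequence or coordinate was used.

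The members, the pathway and marker lists, the role groups and the naming rule were chosen with earlier results of these data known. The rule named 35 genes: 17 found of a set of 23, of each role up to 2 members with the smallest p and those with the highest and lowest difference, and pathway genes past the threshold. Other genes named here, among them USP1, USP4, USP5, USP34, USP37, USP38, USP45, PSMC2, PSMC5, PSMD3, PSMD5, PSMD6, PSMD13, NFE2L2, UBE2L6, OTUD6B, COPS5, OAS2 and VCP, were named after their values were seen. The gene that DESeq2 called among the ubiquitin genes, activating enzymes and shuttle factors is not reported here.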

Additional observations from a re-analysis of the deposited data

How the results depend on the processing

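No member passed an adjusted p of 0.05 in the main limma analysis, and none with a PSM symbol did so under any of the 15 alternatives. The USP genes past the threshold numbered 1 with the filter at 5 FPKM and 1 in DESeq2, USP13 both times, and 0 in the other 13. Over all genes the count of 360 became 69 with no filter, 1255 in DESeq2 and 11 to 504 with 1 library left out (11 without Yorkshire 3, 504 without Wannanhua 3). Members at an unadjusted p under 0.05 ranged from 6 of 57 (without Wannanhua 3, beside 21.6% of all genes) to 12 of 58 (without Yorkshire 1, beside 22.4%). Of 856 values of members under an alternative, 802 kept sign and side of the threshold, 2 passed anew and 52 changed sign, in 19 members whose main log2 difference was at most 0.22 in size. Sign changes with quantile normalization were PSMD4 (-0.019), USP19 (-0.095), USP39 (-0.089), USP45 (-0.0048) and USP48 (-0.083). In edgeR they were PSMA3 (-0.051), PSMC2 (-0.041), PSMD13 (-0.035), PSMD4 (-0.082), USP10 (-0.0048), USP15 (-0.059), USP19 (-0.091), USP39 (-0.035), USP45 (-0.040) and USP48 (-0.020), and in DESeq2 PSMA3 (-0.062), PSMC2 (-0.050), PSMD13 (-0.046), PSMD4 (-0.092), USP10 (-0.017), USP15 (-0.071), USP19 (-0.10), USP39 (-0.044), USP45 (-0.046), USP47 (-0.0043) and USP48 (-0.030). With 1 library left out, these ranges crossed 0: PSMA5 -0.0094 to 0.35, PSMB8 -0.26 to 0.18, PSMC2 -0.12 to 0.22, PSMD11 -0.15 to 0.36, PSMD13 -0.066 to 0.17, PSMD3 -0.019 to 0.29, PSMD4 -0.22 to 0.17, PSMD6 -0.063 to 0.28, PSME1 -0.32 to 0.064, PSMG3 -0.19 to 0.081, USP19 -0.072 to 0.12, USP28 -0.54 to 0.13, USP39 -0.10 to 0.17, USP45 -0.22 to 0.36 and USP48 -0.12 to 0.35. The causes were not tested. Where an arm kept 2 libraries, its spread was pooled with the other breed. Members with under 50 reads a library, such as PSMB9, PSMG3 and USP18, are limited by depth.

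Replicate numbers gave no clear pairing here. Same-numbered libraries deviated from their breed means with correlations of 0.10, -0.01 and 0.11, all weak. Wannanhua 1 and 3 correlated best with their own number, and Wannanhua 2 did not. With the replicate number as a block, 205 genes passed in place of 360, and no member did. UBE2W, called without the block, had an adjusted p of 0.0555 with it, and NFE2L1 one of 0.0373.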

Other observations

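The ubiquitin-conjugating enzyme UBE2L6, which interferon induces and which loads ISG15 as well as ubiquitin, was at 4.33, 4.11 and 3.54 FPKM in Wannanhua and 8.46, 13.5 and 5.96 in Yorkshire. Each Wannanhua library lay below each Yorkshire library, with a log2 difference of -0.98 ± 0.27 (SE; limma adjusted p = 0.0995, and 0.00648 to 0.245 over 15 alternatives, of which 1, DESeq2, passed). It was named after its values were seen.

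On the list of deubiquitinases of other families and related genes, OTUD6B did not overlap between breeds. It was at 13.9, 12.6 and 13.1 FPKM in Wannanhua and 7.08, 7.72 and 8.35 in Yorkshire. Its log2 difference was 0.71 ± 0.16 (SE; limma adjusted p = 0.0598, and 0.0477 to 0.192 over 15 alternatives, of which the filter at 5 FPKM passed). COPS5, the deubiquitinase-fold subunit of the COP9 signalosome and a relative of PSMD14, was at 66.8, 61.6 and 78.8 FPKM against 99.9, 84.6 and 86.4. Its log2 difference was -0.39 ± 0.18 (SE; limma adjusted p = 0.250, and 0.148 to 0.533 over 15 alternatives), with no overlap between breeds.

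VCP, the ATPase that pulls ubiquitin-tagged proteins out of complexes and hands them to the proteasome, was at 151, 160 and 236 FPKM in Wannanhua and 134, 129 and 128 in Yorkshire. Its highest library was Wannanhua 3, as it was for 12 of the 16 tested ubiquitin genes, activating enzymes and shuttle factors (75.0%, against 22.4% of all genes tested). The breeds did not overlap for VCP, and its log2 difference of 0.45 ± 0.21 (SE) did not pass (limma adjusted p = 0.259, and 0.240 to 0.472 over 15 alternatives).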
